A study of Mus musculus with 12 samples.

Results

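*miR-26a* and *miR-26b* are 2 related miRs that carry the same seed and are made from introns of the *Ctdsp* phosphatase genes. The values here cover 3 of the 1927 miRs listed in a count table of mouse fetal liver, of which 682 had a count in any library. They are *miR-26a-5p* (mmu-miR-26a-5p in the table), *miR-26b-5p* (mmu-miR-26b-5p) and *miR-26b-3p* (mmu-miR-26b-3p). They were chosen by name, and the choice rested on the ratio of *miR-26b-5p* to *miR-26a-5p*, on the use of the 2 arms of the hairpins, and on whether *miR-26b* but not *miR-26a* was lower in *Mir483*Pat-KO livers. These 3 measures are therefore given as descriptions, and calls of the guide strands between genotypes are not read as tests of them.

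A miR hairpin is cut into a duplex of a 5p and a 3p strand. One of them, the guide strand, is kept in an Argonaute protein and pairs through its seed with messenger RNAs, whereas the other, the passenger strand, is mostly degraded. The hosts *Ctdsp1*, *Ctdsp2* and *Ctdspl* encode small phosphatases that act on the C-terminal domain of RNA polymerase II and on other proteins. *miR-26* guide strands are known to restrain the cell cycle, with targets that include the histone methyltransferase gene *Ezh2* and cyclin genes, and *miR-26a* is known in liver as a miR whose level is low in hepatocellular carcinoma.

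miR-seq was performed on livers of female fetuses at E18.5, with 1 library per fetus. The 5 wild-type (WT) libraries were from littermates of the 7 *Mir483*Pat-KO fetuses, which inherited a deletion of *Mir483* from the father. *Mir483* lies in an intron of the imprinted *Igf2* gene and is expressed from the paternal copy. The deletion was made by Cre recombinase in embryonic stem cells of 2 independent clones, is present in every tissue, and was kept on a C57BL/6J background. The livers were bulk tissue, so that fewer cells of a type and less RNA per cell cannot be told apart.

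The mature strands are shown first because the seed and the few differing bases define the family. All sequences are from RefSeq on GRCm38.p6, read 5′ to 3′, and capitals mark the seed, bases 2 to 8 counted from 1 at the 5′ end.
miR-26a-5p: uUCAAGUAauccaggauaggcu
miR-26b-5p: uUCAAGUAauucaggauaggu
miR-26a-1-3p: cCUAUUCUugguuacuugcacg
miR-26a-2-3p: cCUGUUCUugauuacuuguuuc
miR-26b-3p: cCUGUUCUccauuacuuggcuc
The guide strands matched at 19 of the 21 positions compared. Going from *miR-26a-5p* to *miR-26b-5p*, the substitutions were C11U and C21U, both outside the seed, and *miR-26a-5p* was 22 bases long against 21 for *miR-26b-5p*. No other miR among the 1679 mature names in the RefSeq table had the seed of these 2 guide strands. The passenger strand *miR-26b-3p* differed from *miR-26a-2-3p* by U9C, G10C, U19G and U20C and shared its seed, whereas *miR-26a-1-3p* differed from *miR-26a-2-3p* within the seed, by G4A, and had a seed that no other listed miR had.

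The hairpins are shown with both mature strands in capitals, to show the 2 arms whose reads are compared.
Mir26b: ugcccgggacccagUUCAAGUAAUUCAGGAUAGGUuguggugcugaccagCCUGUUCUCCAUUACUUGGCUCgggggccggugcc
Mir26a-1: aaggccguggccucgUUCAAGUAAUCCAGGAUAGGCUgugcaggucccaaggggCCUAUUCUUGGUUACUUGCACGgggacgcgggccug
Mir26a-2: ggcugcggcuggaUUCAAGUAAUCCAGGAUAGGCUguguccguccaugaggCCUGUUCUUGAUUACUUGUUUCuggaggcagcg
The *Mir26b* hairpin (chr1:74394310-74394394, plus strand of GRCm38) lies in the 564-base intron after exon 4 of the 7 exons of *Ctdsp1*. The *Mir26a-1* hairpin (chr9:119031796-119031885, plus strand) lies in a 3283-base intron of *Ctdspl*, after exon 5 of the 8 exons of one of its protein-coding transcripts. The *Mir26a-2* hairpin (chr10:126995530-126995613, plus strand) lies in the 1946-base intron after exon 5 of the 8 exons of the principal transcript of *Ctdsp2*, and within an exon of 2 other *Ctdsp2* transcripts. Each hairpin was on the strand of its host. *Mir26a-1* and *Mir26a-2* give the same *miR-26a-5p*, so a read of it could come from either gene, whereas their passenger strands can be told apart.

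The count tables gave totals of 711810 to 1211160 miR reads in WT and of 658665 to 921068 in *Mir483*Pat-KO libraries, and a level of 3 counts was 2.48 to 4.55 CPM (a count scaled to the library total). Levels are given as CPM after TMM scaling, which sets libraries to a common scale from the bulk of miRs. The targeted miR followed the labels: *miR-483-3p* lay between 985 and 1238 CPM in WT libraries and between 0 and 25 CPM in *Mir483*Pat-KO libraries. The hepatocyte miR *miR-122-5p* was at 118609 to 169818 CPM over all libraries. Of the 388 miRs that passed the filter on low counts, edgeR's quasi-likelihood test with Benjamini-Hochberg adjustment called 8 as differentially expressed miRs (DEMs) at a threshold of 0.05.

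Before the members are compared, 2 libraries need to be named. WT replicate 3 and *Mir483*Pat-KO replicate 2 had the lowest ratio of *miR-26b-5p* to *miR-26a-5p* and the lowest share of *miR-26a* reads on the 3p arms, each within its own genotype and over all 12 libraries. The same 2 libraries had the lowest total of their genotype, 711810 and 658665 reads. They also had the highest summed level of the 2 endothelial marker miRs, *miR-126a-3p* and *miR-126a-5p*, which are arms of the same hairpin. This level was 1261 and 1221 CPM, against 725 to 1142 CPM in the other libraries. Marker miRs of other cell types did not place both at the top. Counted from the highest of the 12 libraries, they ranked 6 and 1 for the hepatocyte miR and 9 and 8 for the erythroid miRs. The ranks were 11 and 1 for the white blood cell miRs and 5 and 7 for the biliary miRs. The part of depth and of endothelial RNA in the ratio was not tested, and the fold changes, the ratio, the 3p share, the pair spreads, the likeness and the test of *miR-26a-2-3p* are given with and without these libraries.

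Both guide strands were abundant, and *miR-26b-5p* was the higher of the pair in 12 of 12 libraries. Its mean over all libraries, 4013 CPM, ranked 38 among the 682 miRs with a count, between *miR-341-3p* at 4055 CPM and *miR-144-3p* at 3888 CPM. *miR-26a-5p*, at 2585 CPM, ranked 43, between *miR-301a-3p* at 2694 CPM and *miR-380-3p* at 2317 CPM. These distances to the neighbouring miRs were all smaller than the SD of the member in WT libraries, so that the exact ranks are not resolved. The strands have near equal lengths, but reads of different miRs are ligated and amplified with unequal yield, so that the order of 2 miRs in read counts need not be their order in molecules.

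*miR-26b-5p* was at 4055, 5229, 4231, 4026 and 4460 CPM in WT replicates 1 to 5. In *Mir483*Pat-KO libraries its lowest, median and highest levels were 3666, 3706 and 3873 CPM. Every *Mir483*Pat-KO library was thus below every WT library, and WT replicate 2 was the highest of all. The mean was 4400 ± 495 CPM in WT (SD, n = 5), against 3736 ± 81.1 CPM in *Mir483*Pat-KO (SD, n = 7), and the fitted log2 fold change was -0.24 (SE 0.065). The ranges were also apart without TMM scaling, although narrowly, at 3898 to 5463 CPM of the library total in WT and 3517 to 3844 in *Mir483*Pat-KO. Over all tested miRs, 1.29% had every *Mir483*Pat-KO library below every WT library, and since this contrast was used to choose the members, nothing is read from the count of 1 member among them. Marker miRs of cell types went both ways. The summed level of the erythroid miRs was above every WT library in 5 of 7 *Mir483*Pat-KO libraries (25913 to 37810 CPM, against 23848 to 31974 CPM in WT). That of the white blood cell miRs was above in 3 of 7 (13119 to 14813 CPM, against 11343 to 14595 CPM in WT). Stellate or mesenchymal miRs were above in 2 of 7. Endothelial miRs were below every WT library in 2 of 7 (725 to 1221 CPM, against 953 to 1261 CPM in WT). The hepatocyte miR was above in 1 and below in 1, and the biliary miRs were below in 1. The ranges overlapped in each class named here, and edgeR called 0 of their tested entries, among them 4 erythroid and 3 white blood cell ones. No blood cell entry was at 0 in all libraries, and the part of these cell types in the *miR-26* levels was not tested.

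*miR-26a-5p* was at 2337, 3046, 3639, 2502 and 2699 CPM in WT replicates 1 to 5. In *Mir483*Pat-KO libraries its lowest, median and highest levels were 2181, 2360 and 2809 CPM. The genotypes overlapped: 3 of 7 *Mir483*Pat-KO libraries lay under the whole WT range and 2 of 5 WT libraries lay over the whole *Mir483*Pat-KO range. WT replicate 3 was the highest WT library and *Mir483*Pat-KO replicate 2 the highest *Mir483*Pat-KO library, the same 2 libraries that had the low ratios. The mean was 2845 ± 517 CPM in WT (SD, n = 5), against 2400 ± 223 CPM in *Mir483*Pat-KO (SD, n = 7), and the fitted log2 fold change was -0.24 (SE 0.10).

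**Figure D1:**
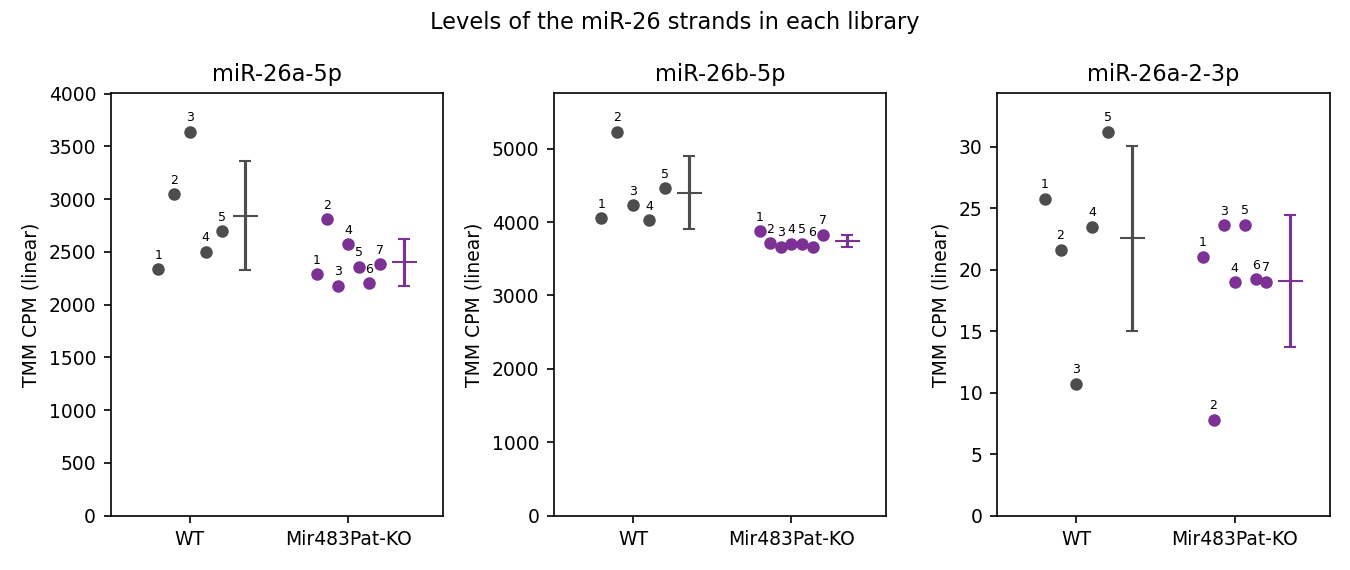
Level (TMM CPM, linear axis from 0) of *miR-26a-5p*, *miR-26b-5p* and *miR-26a-2-3p* in each library, with numbered points for the replicates of 5 WT and 7 *Mir483*Pat-KO fetuses and bars for the mean ± SD. The *miR-26b-5p* points of the 2 genotypes do not overlap, those of *miR-26a-5p* do, and WT replicate 3 and *Mir483*Pat-KO replicate 2 are the highest of their genotype for *miR-26a-5p* and the lowest for *miR-26a-2-3p*.

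The pattern named when the members were chosen, *miR-26b* lower in *Mir483*Pat-KO without *miR-26a*, was thus not seen in the size of the difference, which was -0.24 on the log2 scale for both guide strands. What differed was the spread around it, with a standard error of 0.10 for *miR-26a-5p* and 0.065 for *miR-26b-5p*. Among the 388 tested miRs, 54 had a lower log2 fold change than *miR-26a-5p* and 58 a lower one than *miR-26b-5p*. Of the 2 guide strands, 0 were called as DEMs, beside 2.06% of all tested miRs, and both had an unadjusted p under 0.05, as did 17.5% of all tested miRs. *miR-26b-5p* but not *miR-26a-5p* was called with RLE scaling (2.58% of all miRs called), with library size alone (3.61%), with a filter of at least 10 counts in every library (2.64%), with DESeq2 (4.39%) and without WT replicate 4 (2.6%). Neither was called by limma-voom, which called 2.58% of all miRs, or in any of the remaining settings. Among these were edgeR 4's own dispersion, a block of replicate numbers, and the animal-number range or the index number as a term. Leaving out both low-ratio libraries, or any single library other than WT replicate 4, also gave no call of either strand. These calls come from the contrast that chose the members and are given only as a description.

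Leaving out libraries moved the members apart, in either direction. Without WT replicate 3 the log2 fold change of *miR-26a-5p* was -0.17 (SE 0.084) and that of *miR-26b-5p* was -0.28 (SE 0.069). With both low-ratio libraries left out, the log2 fold changes were -0.19 (SE 0.075) for *miR-26a-5p* and -0.25 (SE 0.068) for *miR-26b-5p*. The order was the other way without some other single libraries. Without *Mir483*Pat-KO replicate 2 alone, *miR-26a-5p* was at -0.31 (SE 0.097) and *miR-26b-5p* at -0.26 (SE 0.067). Without WT replicate 2, *miR-26a-5p* was at -0.24 (SE 0.11) and *miR-26b-5p* at -0.19 (SE 0.057). Both strands were counted in the same libraries, so that their 2 standard errors do not give the error of the difference between them. Within libraries, the log2 ratio of *miR-26b-5p* to *miR-26a-5p* differed between genotypes by -0.10 (SE 0.056) without WT replicate 3. Without both low-ratio libraries it differed by -0.063 (SE 0.044). Within the lower range of animal numbers, which holds 4 WT and 4 *Mir483*Pat-KO fetuses, the log2 fold changes were -0.24 (SE 0.13) for *miR-26a-5p* and -0.24 (SE 0.084) for *miR-26b-5p*, and the upper range held 1 WT fetus, too few for a value of its own. The library index numbers ran through all WT before all *Mir483*Pat-KO libraries, so that between the groups an effect of this order cannot be told apart from genotype.

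**Figure D2:**
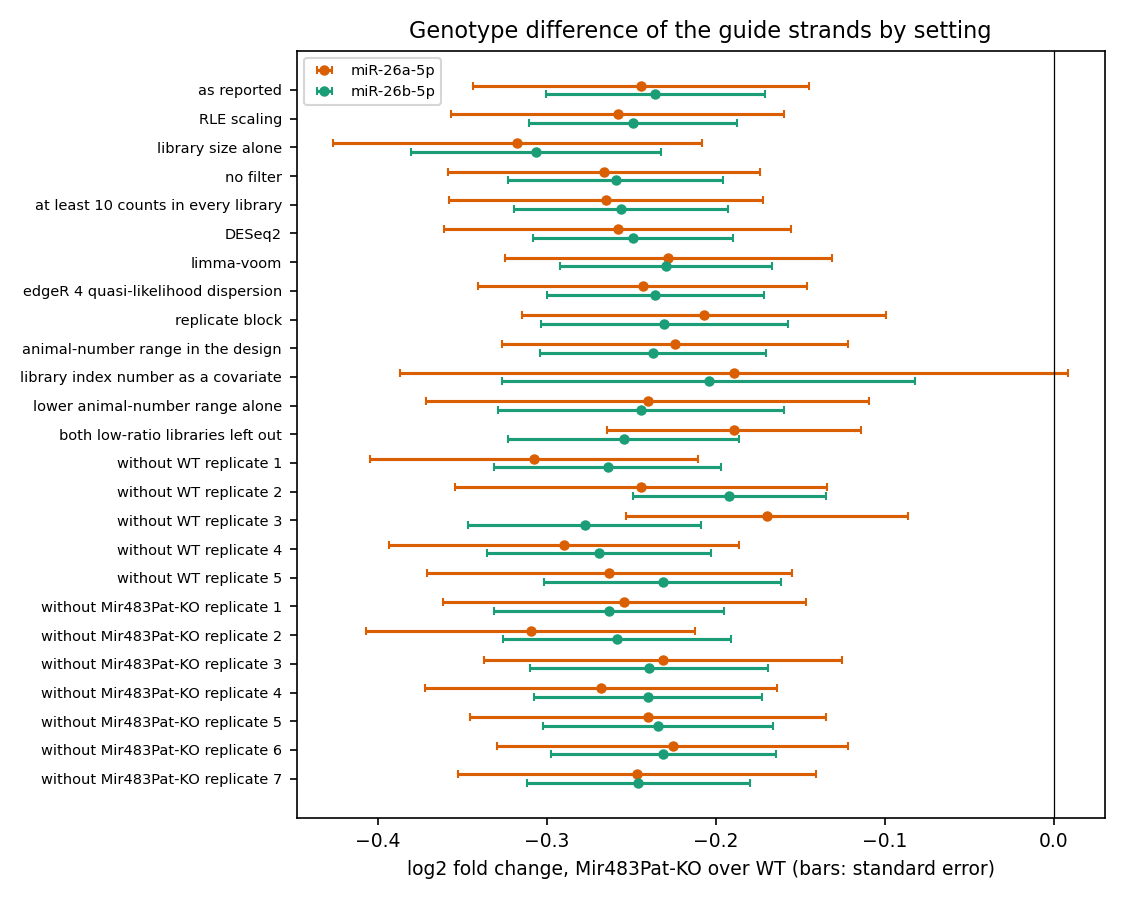
Log2 fold change (*Mir483*Pat-KO over WT, bars for the standard error) of *miR-26a-5p* and *miR-26b-5p* as reported, under 12 other settings and with each library left out in turn. Every value lies below 0, the 2 strands lie close together in most settings, and they are farthest apart without WT replicate 3, at -0.17 and -0.28.

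The ratio of the 2 guide strands was read directly from the counts, which makes it independent of scaling. How the counting told reads of these 2 strands apart, which differ by C11U and C21U, is not given in the sources used here, so that any read assigned to the wrong strand would enter the ratio. *miR-26b-5p* had 1.74, 1.72, 1.16, 1.61 and 1.65 reads per *miR-26a-5p* read in WT replicates 1 to 5. In *Mir483*Pat-KO replicates 1 to 7 there were 1.69, 1.32, 1.68, 1.44, 1.57, 1.66 and 1.6 reads. WT replicate 3 stood below the other WT libraries, *Mir483*Pat-KO replicate 2 was the lowest of its group, and the genotypes overlapped. The mean ratio was 1.58 ± 0.236 in WT (SD, n = 5), against 1.57 ± 0.139 in *Mir483*Pat-KO (SD, n = 7).

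On the log2 scale the ratio was 0.64 ± 0.24 in WT and 0.64 ± 0.13 in *Mir483*Pat-KO, a difference of 0.0027 (SE 0.12). Without WT replicate 3, the WT mean was 0.75 ± 0.050 (SD, n = 4) and the difference was -0.10 (SE 0.056). Without both low-ratio libraries the difference was -0.063 (SE 0.044) and the remaining 10 libraries lay between 0.53 and 0.79. Without *Mir483*Pat-KO replicate 2 alone, the *Mir483*Pat-KO mean was 0.68, above the WT mean of 0.64. The near-equal means of the 2 genotypes thus rested in part on WT replicate 3. The 2 guide strands together took 0.746 ± 0.105% of the miR reads in WT libraries (SD, n = 5), against 0.601 ± 0.0268% in *Mir483*Pat-KO libraries (SD, n = 7), and *miR-26b-5p* made up 60.9% of the pair in both genotypes.

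The ratio was set beside those of other pairs of miRs with a shared seed. Of 25 pairs listed, 19 could be measured as separate entries that passed the filter. The SD of the log2 ratio over the 12 libraries was 0.18 for *miR-26b-5p* to *miR-26a-5p*, close to the median of 0.17 over the 19 pairs, of which 10 were less spread. This position rested on the 2 low-ratio libraries: the SD of the *miR-26* pair was 0.12 without WT replicate 3, with 3 pairs less spread, and 0.078 without both, with 0 pairs less spread. Since these libraries were named for their low ratio, their removal narrows it by choice. Over all libraries the range ran from 0.087 for *miR-106b-5p* and *miR-93-5p*, which lie in one cluster, to 0.97 for *miR-192-5p* and *miR-215-5p*. The pairs were not matched for level. Several of the wider ones held a scarce miR, such as *miR-215-5p* at 24.1 CPM in WT, whereas others held 2 abundant miRs. Fewer reads add counting error to a ratio, and the part of this in the order of the pairs was not tested. The absolute difference of the log2 ratio between genotypes had a median of 0.091 over the 19 pairs, and 0 of them had a smaller one than the 0.0027 of the *miR-26* pair, a value that depends on WT replicate 3 as given above.

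**Figure D3:**
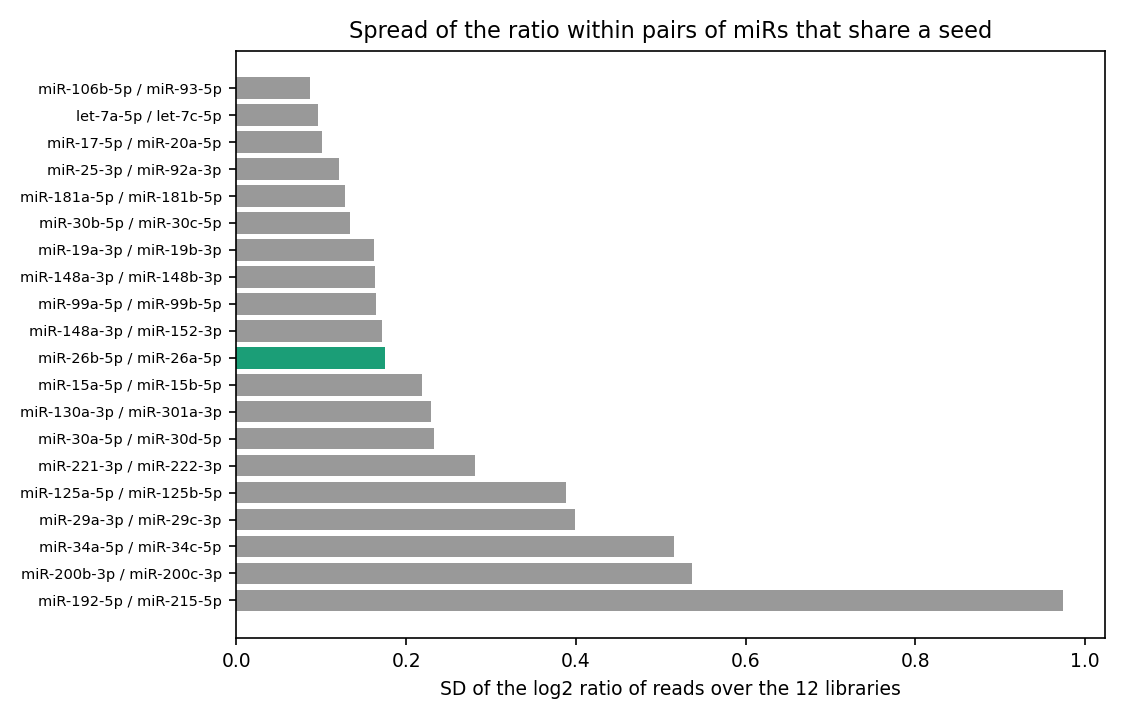
SD of the log2 ratio of reads over the 12 libraries for the *miR-26b-5p* to *miR-26a-5p* pair (green) and 19 other pairs of miRs that share a seed (grey). The *miR-26* pair is near the middle over all libraries, with 10 pairs less spread. Its SD of 0.18 was 0.078, with 0 pairs less spread, without WT replicate 3 and *Mir483*Pat-KO replicate 2. The pairs are not matched for level, and several of the wider ones hold a scarce miR.

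The passenger strands were rare and differed between the hairpins. *miR-26b-3p* had 2, 0, 0, 0 and 2 reads in WT replicates 1 to 5 and 0, 0, 4, 2, 4, 0 and 0 reads in *Mir483*Pat-KO replicates 1 to 7. It was thus seen in 5 of 12 libraries and was at 0 in 7, of both genotypes, and it did not pass the filter on low counts. The table held no entry equal to 1, its lowest count above 0 being 2, so that a 0 may stand for a read that was dropped. Of all *miR-26b* reads, 14 of 41160 were on the 3p arm, a share of 0.0340% (exact Clopper-Pearson 95% interval 0.0186% to 0.0571%). The share was 0.0189% (0.00515% to 0.0484%) in WT and 0.05% (0.0240% to 0.0919%) in *Mir483*Pat-KO, with intervals that overlapped, and in the 7 libraries at 0 the exact interval reached up to 0.0726% to 0.155%, depending on their reads (3 counts would be a share of 0.0591% to 0.126%). Intervals and floors cover counting error only, since reads without molecular identifiers are not independent molecules.

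For *miR-26a*, 220 of 26394 reads were on a 3p arm, a share of 0.834% (exact interval 0.727% to 0.951%), above the whole interval of *miR-26b*. Of these 220 reads, 216 were *miR-26a-2-3p*, a share of 98.2% (exact interval 95.4% to 99.5%), and the other 4 were *miR-26a-1-3p*, all in *Mir483*Pat-KO replicate 1. The 3p reads of *miR-26a* thus came almost all from the hairpin in *Ctdsp2*, which says nothing of how the shared 5p strand is split between the 2 genes. *miR-26a-2-3p* was above *miR-26b-3p* in 12 of 12 libraries. Among 123 hairpins with both arms listed and at least 1000 reads, the rarer arm had a median share of 3.75%, and 13 had a lower share than *miR-26b*.

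The share of *miR-26a* reads on the 3p arms was 0.828% (0.683% to 0.996%) in WT and 0.839% (0.689% to 1.01%) in *Mir483*Pat-KO, over pooled reads. It was 0.294% (0.127% to 0.579%) in WT replicate 3 and 0.277% (0.0899% to 0.645%) in *Mir483*Pat-KO replicate 2, and 0.705% to 1.15% in the other 10 libraries. In each genotype, 1 of these libraries was thus the lowest. They rest on 8 and 5 reads of *miR-26a-2-3p*. Their intervals overlapped those of other libraries, such as 0.437% to 1.08% in WT replicate 2 and 0.401% to 1.23% in *Mir483*Pat-KO replicate 4. Without WT replicate 3 and *Mir483*Pat-KO replicate 2, the mean over libraries was 0.968 ± 0.197% in WT (SD, n = 4), against 0.934 ± 0.165% in *Mir483*Pat-KO (SD, n = 6).

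**Figure D4:**
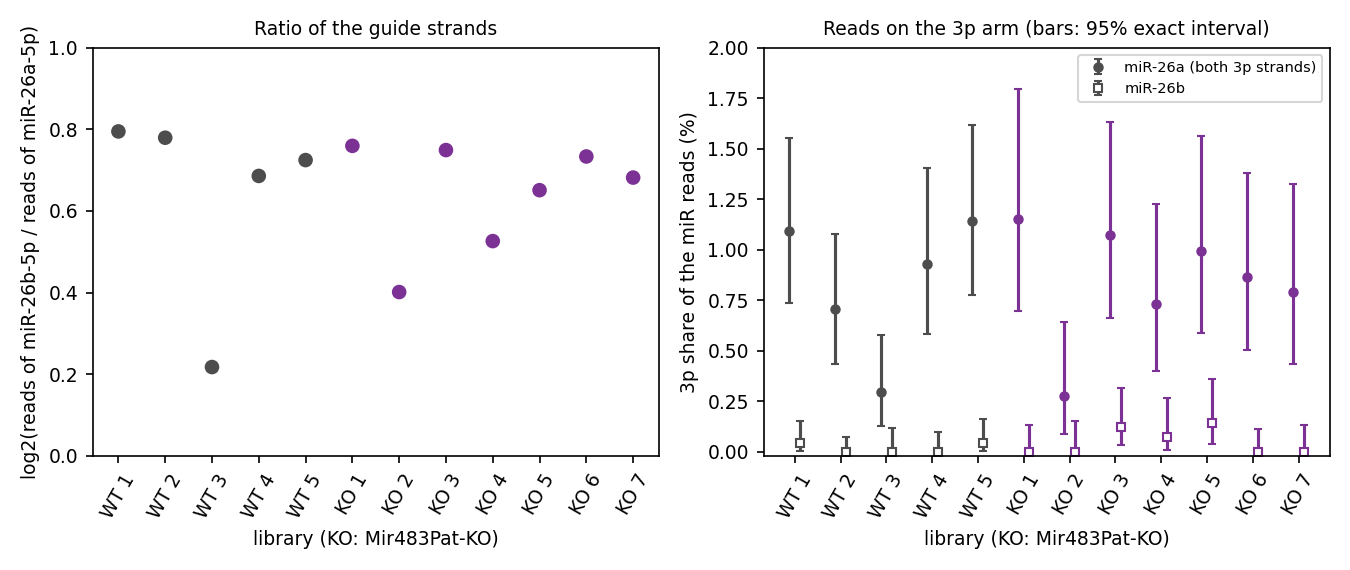
Left, log2 ratio of *miR-26b-5p* to *miR-26a-5p* reads in each library, and right, share of the reads of *miR-26a* (filled circles) and *miR-26b* (open squares) on the 3p arm, in percent with exact 95% intervals, for 5 WT (grey) and 7 *Mir483*Pat-KO (KO, purple) libraries. WT replicate 3 and *Mir483*Pat-KO replicate 2 are lowest in the ratio and in the *miR-26a* share, and the *miR-26b* share is below that of *miR-26a* in each library.

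*miR-26a-2-3p*, which is not one of the 3 members, was tested between genotypes. This strand comes from a hairpin of *miR-26a-5p* and holds 216 of the 220 *miR-26a* reads on the 3p arms. The test is therefore not independent of the measures on which the choice rested. It had 30, 21, 8, 22 and 31 reads in WT replicates 1 to 5, and its lowest, median and highest counts in *Mir483*Pat-KO were 5, 15 and 21. The genotypes overlapped, and WT replicate 3 and *Mir483*Pat-KO replicate 2 were again the lowest of their groups. The level was 22.6 ± 7.53 CPM in WT (SD, n = 5), against 19.1 ± 5.37 CPM in *Mir483*Pat-KO (SD, n = 7), with a log2 fold change of -0.25 (SE 0.28, adjusted p = 0.736 by edgeR's quasi-likelihood test). The 95% interval of this difference, -0.85 to 0.36, includes 0 as well as the -0.24 of the guide strands, so that at this depth neither could be told from it. The log2 fold change was -0.44 without WT replicate 3, -0.15 without *Mir483*Pat-KO replicate 2, -0.29 (SE 0.20) without both and -0.11 without WT replicate 5.

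The spread between fetuses differed between the 2 guide strands, a comparison that was chosen after their values were seen. The coefficient of variation of *miR-26b-5p* was 11.2% in WT and 2.17% in *Mir483*Pat-KO. That of *miR-26a-5p* was 18.2% in WT and 9.28% in *Mir483*Pat-KO. Set against the 143 miRs whose mean log2 CPM was 8 or more, *miR-26b-5p* was near the median of 9.71% in WT, with 90 miRs less spread, whereas 130 were less spread than *miR-26a-5p*. In *Mir483*Pat-KO the median was 8.72%, 79 miRs were less spread than *miR-26a-5p*, and 0 were less spread than *miR-26b-5p*, the next being *miR-136-3p* at 2.71%. The 143 miRs were not matched for level, and those with fewer reads have more counting error. The part of this in the medians and the order was not tested. Counting error alone would give about 1.88% for *miR-26b-5p* in the *Mir483*Pat-KO libraries, so that its 2.17% is close to counting error. The 1.88% is not a floor, and a value from 7 libraries can lie below it. The WT values rested on single libraries: *miR-26b-5p* was at 4.77% without WT replicate 2, with 15 miRs less spread, and *miR-26a-5p* was at 11.5% without WT replicate 3, with 89 miRs less spread. In *Mir483*Pat-KO, *miR-26a-5p* was at 6.15% without replicate 2, and *miR-26b-5p* stayed between 1.6% and 2.35% with each library left out, with 0 to 1 miRs less spread.

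**Figure D5:**
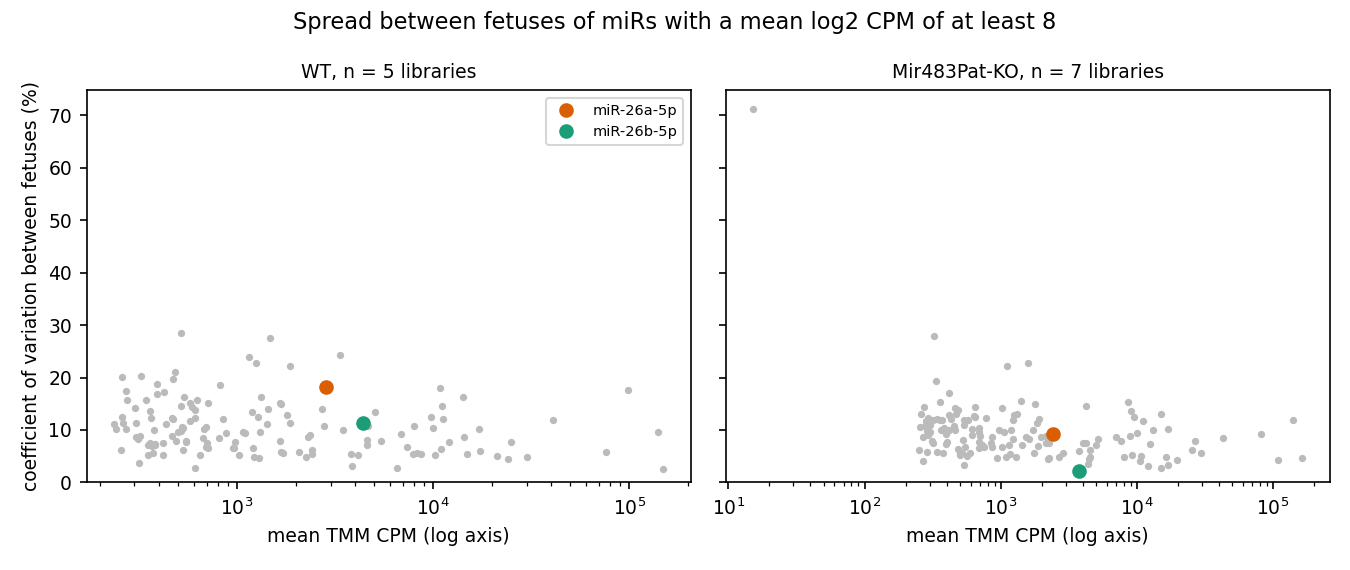
Coefficient of variation between fetuses (percent) against mean level (TMM CPM, log axis) for 143 miRs whose mean log2 CPM was 8 or more, in 5 WT and 7 *Mir483*Pat-KO libraries. *miR-26b-5p* (green) is the least spread of all in *Mir483*Pat-KO, at 2.17% (counting error alone, 1.88%), and near the median in WT (4.77% without WT replicate 2). *miR-26a-5p* (orange) is in the upper part in WT (11.5% without WT replicate 3), and the lone point above 70% is the deleted *miR-483-3p*. The miRs are not matched for level, and those with fewer reads have more counting error.

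The miRs whose level was most like that of each guide strand over the 12 libraries were different ones. For *miR-26a-5p* they were *miR-335-5p*, from an intron of the imprinted *Mest* gene, with a Pearson r of 0.88, *miR-329-5p* with 0.75 and the merged entry of *miR-23a-3p* and *miR-23b-3p* with 0.74. For *miR-26b-5p* they were *miR-379-3p* with 0.76, *miR-30d-5p* with 0.75 and *miR-125a-5p* with 0.75. The 2 guide strands had an r of 0.59 with each other, and among 141 other miRs *miR-26b-5p* was the 10th most like *miR-26a-5p* while *miR-26a-5p* was the 16th most like *miR-26b-5p*. Without the 2 low-ratio libraries the r between the guide strands was 0.88 over 10 libraries, and that of *miR-26a-5p* was 0.69 with *miR-335-5p*, 0.52 with *miR-329-5p* and 0.68 with the *miR-23* entry, whereas that of *miR-26b-5p* was 0.80, 0.77 and 0.77 with its 3 miRs. Since the low-ratio libraries were named for their ratio, their removal raises the r between the guide strands by choice. The 3 miRs of each strand were the highest over all 12 libraries and were not chosen anew. All values of r here are descriptions over libraries that share their scaling, depth and genotype difference, and no test was made of them.

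Other miRs known to restrain the cell cycle, such as the *miR-34*, *miR-15* and *miR-29* families, were set beside the members. Of 17 tested entries, 10 were at a higher and 7 at a lower level in *Mir483*Pat-KO, with a median log2 fold change of 0.054 against 0.0028 over all 388 miRs. By edgeR 0 were called, beside 2.06% of all tested miRs, and DESeq2 and limma-voom also called 0, beside 4.39% and 2.58%. An unadjusted p under 0.05 was found for 3 of the 17, or 17.6%, beside 17.5% of all tested miRs. The highest log2 fold changes were 0.54 (SE 0.50) for *miR-449a-5p* and 0.40 (SE 0.13) for *miR-34c-5p*, a miR induced by p53, with an adjusted p of 0.113 by edgeR. The lowest were -0.25 (SE 0.13) for *miR-145a-5p*, a miR of smooth muscle and other mesenchymal cells, and -0.23 (SE 0.16) for *miR-34a-5p*. *miR-34a-5p* is of the same family as *miR-34c-5p*, so that this family went both ways. Single libraries moved these values: *miR-449a-5p* was at 0.89 without WT replicate 4, *miR-145a-5p* at -0.14 without WT replicate 5 and *miR-34a-5p* at -0.14 without *Mir483*Pat-KO replicate 5. Of the 17, 1 was below each of the *miR-26* guide strands in log2 fold change.

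Other miRs that, like *miR-26*, lie in introns of protein-coding genes also went both ways. Of 29 tested entries, 12 were at a higher and 17 at a lower level in *Mir483*Pat-KO, with a median log2 fold change of -0.017. By edgeR 0 were called, DESeq2 called 2 and limma-voom called 1, beside 2.06%, 4.39% and 2.58% of all tested miRs. An unadjusted p under 0.05 was found for 8 of the 29, or 27.6%, beside 17.5% of all tested miRs. The highest were 0.35 (SE 0.14) for *miR-33-5p*, from the sterol regulator gene *Srebf2*, and 0.29 (SE 0.11) for *miR-15b-5p*, from *Smc4*. The lowest were -0.46 (SE 0.29) for *miR-24-1-5p* and -0.37 (SE 0.16) for *miR-342-3p*, from *Evl*. *miR-24-1-5p* was scarce, at 15.5 CPM in WT and 11.3 CPM in *Mir483*Pat-KO. Merged entries of this list also hold reads of miRs outside it. *miR-15b-5p* and the merged *miR-101* entry are in both lists. Of the 29, 2 were below *miR-26a-5p* and 4 below *miR-26b-5p*.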

How the data were processed

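Small RNA libraries (TruSeq Small RNA kit, NovaSeq6000) were aligned and counted by the authors with miRge 3.0, and the deposited values are counts of reads per mature miR, neither normalized nor pooled. The miR reference and adapter trimming are not given in the sources used here. Columns and genotypes were matched through the animal numbers in the labels, with separate fetuses as replicates, and 0 columns were left unmapped.

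miRs were filtered with filterByExpr (minimum count 10), scaled by TMM and compared with edgeR 4.0.16 (glmQLFit with legacy = TRUE and glmQLFTest, R 4.3.3), with genotype as the sole term and p adjusted by Benjamini-Hochberg over 388 miRs at a threshold of 0.05. The fit was tried on simulated counts with changes larger than those of the guide strands. It called 88.4% of the changed miRs, and 3.47% of its calls had no change. This does not show how often a difference as small as that of the guide strands would be called. Totals were 658665 to 1211160 counts per library. Likeness was Pearson's r on log2 CPM (prior count 2). Host introns are from GENCODE vM21 on GRCm38 and sequences from RefSeq.

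The members, the lists of other miRs and the seed pairs were chosen with earlier results of these data known. The text names the members, the *miR-26a* passenger strands, *miR-483*, the 3 miRs most like each guide strand, the neighbours in level, the extreme seed pairs, marker miRs, and in each list at most 2 highest and 2 lowest miRs. *miR-136-3p* was named after its values were seen. Alternatives were RLE scaling, library size alone, other filters, DESeq2 1.42.0, limma-voom (limma 3.58.1), edgeR 4's own dispersion, the animal-number range or the index number as a term, a block of replicate numbers, and leaving out each library. Fits on the lower animal range alone and without both low-ratio libraries, and the spreads and likeness without single libraries, were added after seeing the data.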

Additional observations from a re-analysis of the deposited data

Results flagged for a closer look

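In 12 groups of libraries, 6 measures in each of the 2 genotypes, the gap between the highest or lowest library and its nearest neighbour was set against the whole range, by Dixon's 95% limit, which chance passes in about 1 in 20 groups. In 2 groups the gap was beyond the limit, and neither was a group of the 3p share. Since the ratio and the 3p share served to choose the members, and WT replicate 3 was already named for its ratio, these gaps only describe how far the libraries lie apart. The log2 ratio of *miR-26b-5p* to *miR-26a-5p* was 0.22 in WT replicate 3, and the next WT library was at 0.69. The level of *miR-26a-2-3p* was 7.79 CPM in *Mir483*Pat-KO replicate 2, from 5 reads, and the next *Mir483*Pat-KO library was at 19 CPM.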

How the results depend on the processing

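The log2 fold change of *miR-26a-5p* was between -0.32 and -0.19 and that of *miR-26b-5p* between -0.31 and -0.20 over 12 other settings, and with each library left out they were -0.31 to -0.17 and -0.28 to -0.19. The number of DEMs, 8 as reported, was 14 with library size alone, 17 with DESeq2, 5 with the animal-number range, 3 with the index number as a covariate, 2 in the lower animal range alone, 4 without both low-ratio libraries, and 3 to 12 with each library left out, the 3 without WT replicate 3. It was also 5 without WT replicate 2 and 4 without each of *Mir483*Pat-KO replicates 4, 5, 6 and 7. With the replicate number as a block it was 3, with -0.21 for *miR-26a-5p* and -0.23 for *miR-26b-5p*. The numbers did not pair the libraries, since 1 of 5 same-numbered pairs had a correlation of deviations over 0.1 and 1 WT library correlated best with its own number. With the index number as a term, the sign turned for *miR-15b-5p* (-0.11), *miR-335-5p* (0.044), *miR-342-3p* (0.0079), *miR-34a-5p* (0.084) and *miR-449a-5p* (-0.47), and the log2 fold changes were -0.19 (SE 0.20) for *miR-26a-5p* and -0.20 (SE 0.12) for *miR-26b-5p*. The cause was not tested. Of the intronic miRs, 2 were called with library size alone, 2 with DESeq2, 1 with limma-voom and 0 to 1 with each library left out, the 1 without *Mir483*Pat-KO replicate 2. Of the cell-cycle-restraining miRs, 0 to 1 were called with each library left out, the 1 without WT replicate 1. *miR-26a-2-3p* was at -0.55 to -0.21 over 11 settings and at -0.44 to -0.11 with each library left out, and the filter of at least 10 counts left it out. The 3p shares rest on 14 reads for *miR-26b* and 220 for *miR-26a*, which limits what they can show.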
